A study of Homo sapiens with 6 samples.

Results

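Condensin and topoisomerase II are the protein machines that fold and disentangle chromosomes, and 10 genes encode the parts measured here. They were chosen by name: the shared ATPases SMC2 and SMC4, the condensin I subunits NCAPD2, NCAPG and NCAPH, the condensin II subunits NCAPD3, NCAPG2 and NCAPH2, and the topoisomerase II enzymes TOP2A and TOP2B. All 10 were present among the 58825 gene identifiers of the count table, and all 10 were among the 16208 genes that passed the filter on low counts. The rule that picks the members names genes and sets no threshold on a measured value, but it was written with earlier results of these data known.

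The libraries were mRNA libraries made from total RNA of SKOV3, an established human epithelial ovarian cancer cell line, after transient transfection with siRNA. The NC group (n = 3) had received a negative control siRNA and the si-EIF5A2 group (n = 3) an siRNA against EIF5A2, an isoform of translation factor eIF5A that carries hypusine, a modified lysine. The cells of both groups were otherwise untreated, the transfection reagent was INTERFERin, and the series description gives 48 h of treatment. The study asked which genes change in ovarian cancer cells once EIF5A2 is depleted. The groups are limited as a model to 1 cell line and transient knockdown, and the methods list 1 siRNA against EIF5A2. The labels do not say whether the 3 samples of a group were separate cultures, so the p-values measure the spread between these samples, which may be technical.

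Condensin is a ring-shaped complex that extrudes loops of DNA and so compacts chromosomes for mitosis. SMC2 and SMC4 form the ATPase core of both versions of the complex, to which each version adds a kleisin (NCAPH or NCAPH2) and a pair of HEAT-repeat subunits. Condensin II sits in the nucleus through interphase and starts compaction in prophase, whereas most condensin I reaches chromosomes only after the nuclear envelope has broken down. Topoisomerase II passes one DNA duplex through another and untangles sister chromatids. TOP2A is made mainly in dividing cells and is the main target of etoposide and doxorubicin in them, whereas TOP2B is also made in cells that have stopped dividing and acts in transcription.

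The targeted gene was checked first. Levels are given as counts per 1000000 counts of a library (CPM), with library sizes adjusted by the TMM method. EIF5A2 stood at 29.1 ± 1.15 CPM in the NC libraries against 3.69 ± 0.817 CPM after knockdown (SD, n = 3 each), which is -2.98 as a log2 fold change (SE 0.18, adjusted p = 1.6e-05). Summed counts ran from 46900204 to 74142267 per library, which correspond to about 12607582 to 19930717 read pairs, and a count of 0 allows up to 0.151 to 0.238 CPM by counting error alone. Libraries correlated at r = 0.964 to 0.974 within groups and at 0.929 to 0.938 between groups across genes, and none stood apart. Of markers of this epithelial line, KRT7, KRT8 and KRT18 were at 382, 608 and 418 CPM in NC and ERBB2 was at 45.9 CPM, while KRT19 (3.22 CPM) and EPCAM (1.55 CPM) were low. These 6 epithelial markers summed to 1409 to 1551 CPM in NC and to 898 to 1101 CPM in si-EIF5A2, where KRT7 (209 CPM) and KRT8 (377 CPM) were called lower, and the part of this in the results below was not tested. Of 5 markers of blood and liver, PTPRC and CD3E were at 0 in every library, and the sum of all 5 reached at most 0.0988 CPM in an NC library and 0.229 CPM in one of si-EIF5A2.

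A gene was called where the adjusted p (quasi-likelihood test of edgeR over all 16208 genes, Benjamini-Hochberg) was under 0.05 and the fold change over 1.5. After EIF5A2 knockdown, 9 of the 10 genes were called lower and 1, TOP2B, was called higher. Of all tested genes, 13.6% were called lower and 11.1% higher. All 8 condensin subunits fell, to between 12.3% (NCAPH) and 51.4% (NCAPH2) of their NC level, and TOP2A fell to 14.5%. For all 9 lower genes, each si-EIF5A2 library lay below every NC library, which held for 26.5% of tested genes. TOP2B lay above in each si-EIF5A2 library, which held for 24.7%. The median log2 fold change of the 10 genes was -2.03, against -0.010 over all tested genes. In RNA from a whole culture, fewer dividing cells and less of these RNAs per cell cannot be told apart.

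**Figure D1:**
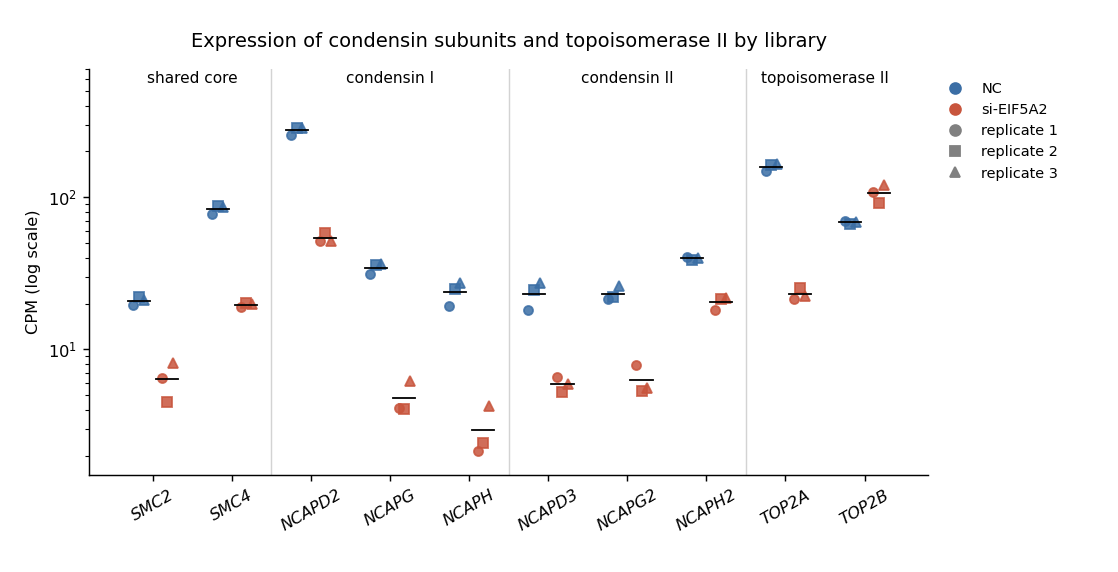
CPM on a log axis for the 10 genes, 1 point per library, NC and si-EIF5A2 side by side, the marker shape giving the replicate number and short bars the group means. The si-EIF5A2 points lie below all NC points for 9 genes, from NCAPH (2.94 against 23.8 CPM) to NCAPH2 (20.5 against 39.8 CPM), and above them for TOP2B (107 against 68.3 CPM).

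Promoters of 4 of the genes are shown first, because TOP2A and TOP2B are close relatives with opposite calls and NCAPD2 and NCAPG stand for condensin I. Each is the RefSeq window from 250 bases before to 50 bases after an annotated start site (GRCh38.p14), read 5′ to 3′ on the gene's strand, and capitals mark matches to 3 kinds of motif on either strand. These are the cell-cycle genes homology region, or CHR (TTTGAA, reverse TTCAAA), which the MuvB complexes bind, the CCAAT box (CCAAT, reverse ATTGG), which NF-Y binds, and 4 spellings of an E2F site (TTTCCCGC, TTTGGCGC, TTTCGCGC and TTTGCCGC). No matches overlapped.
TOP2A, chr17:40417847-40418146, minus strand: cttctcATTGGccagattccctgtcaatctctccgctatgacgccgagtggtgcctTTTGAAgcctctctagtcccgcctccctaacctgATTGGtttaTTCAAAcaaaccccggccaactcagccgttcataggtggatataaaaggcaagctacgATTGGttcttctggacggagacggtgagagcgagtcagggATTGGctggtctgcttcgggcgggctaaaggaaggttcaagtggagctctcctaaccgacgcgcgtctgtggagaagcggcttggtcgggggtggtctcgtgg
TOP2B, chr3:25664858-25665157, minus strand: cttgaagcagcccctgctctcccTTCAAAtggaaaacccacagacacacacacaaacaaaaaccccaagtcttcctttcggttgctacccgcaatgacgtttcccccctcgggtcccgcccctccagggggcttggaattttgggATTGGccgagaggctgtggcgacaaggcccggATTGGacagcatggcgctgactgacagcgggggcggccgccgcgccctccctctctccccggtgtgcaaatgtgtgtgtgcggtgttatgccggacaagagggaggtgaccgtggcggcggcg
NCAPD2, chr12:6493852-6494151, plus strand: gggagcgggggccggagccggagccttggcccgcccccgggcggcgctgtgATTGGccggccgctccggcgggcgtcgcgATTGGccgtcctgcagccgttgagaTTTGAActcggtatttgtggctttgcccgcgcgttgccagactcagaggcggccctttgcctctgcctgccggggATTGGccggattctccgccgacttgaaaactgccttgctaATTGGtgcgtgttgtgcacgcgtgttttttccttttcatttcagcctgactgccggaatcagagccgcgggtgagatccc
NCAPG, chr4:17810729-17811028, plus strand: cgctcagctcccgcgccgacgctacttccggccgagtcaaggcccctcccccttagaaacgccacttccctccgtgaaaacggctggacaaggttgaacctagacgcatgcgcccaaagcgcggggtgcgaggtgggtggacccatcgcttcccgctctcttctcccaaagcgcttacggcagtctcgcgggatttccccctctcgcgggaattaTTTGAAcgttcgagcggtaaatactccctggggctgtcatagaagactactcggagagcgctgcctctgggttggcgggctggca

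The TOP2A window held 2 CHR matches, at -194 and -151 from the start site, and 4 CCAAT matches, at -244, -160, -93 and -53. NCAPD2 had 1 CHR match at -145 and 4 CCAAT matches at -199, -170, -70 and -30, and NCAPG had 1 CHR match at -35. TOP2B, the gene that rose, also held a CHR match at -227 and CCAAT matches at -105 and -73 in the window shown. A further TOP2B window, chr3:25664323-25664622, held none of these letters.

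Of the 10 gene names, 9 matched the promoter table, with 13 windows between them, and NCAPH2 did not. CHR letters stood in 8 of the 13 windows and in 8 of the 9 genes (NCAPH being the exception), against 15.2% of all 35116 windows. CCAAT stood in 5 of the 13 windows (NCAPD2, NCAPD3, NCAPH, TOP2A and TOP2B), against 34.6% of all windows. An E2F spelling stood in 1 window, of NCAPD3, against 3.31%. The CHR matches of SMC2 and NCAPD3 lay at -3 and that of NCAPG2 at +35, so only 5 genes held one in the 250 bases before the start site. The matches describe letters and not binding.

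The shared core fell in both its subunits. SMC4 (ENSG00000113810, chr3:160399274-160434962, plus strand, GRCh38, GENCODE 29), an ATPase of both complexes, was at 77.6, 87.2 and 86.4 CPM in NC and at 18.9, 20.3 and 19.9 CPM in si-EIF5A2. The si-EIF5A2 libraries lay close together and far below NC, with a log2 fold change of -2.09 (SE 0.09, adjusted p = 5.17e-06). SMC2 (ENSG00000136824, chr9:104094260-104141417, plus strand), its partner ATPase, was at 19.6, 22.0 and 21.0 CPM in NC and at 6.51, 4.50 and 8.13 CPM in si-EIF5A2. Its si-EIF5A2 libraries were more spread, with replicate 3 the highest, and none reached an NC library (log2 fold change -1.71, SE 0.21, adjusted p = 4.79e-04). Within a library SMC4 counts exceeded SMC2 counts by 2.002 ± 0.0321 on the log2 scale in NC and by 1.66 ± 0.453 in si-EIF5A2 (SD, n = 3), and these ratios overlapped (difference -0.34, SE 0.262, exact permutation p = 0.40).

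Of the exon bases of SMC4, 18.5% lie opposite exons of TRIM59, and whether counting used strand is not given in the sources used here. TRIM59 was itself called lower, from 28.4 to 15.2 CPM (log2 fold change -0.90). IFT80 also lies opposite SMC4, over 7.18% of its exons, and was not called (log2 fold change -0.39). Reads from these stretches cannot be assigned to one gene without strand.

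The subunits particular to condensin I all fell, with a median log2 fold change of -2.85 over the 3 genes. NCAPD2 (ENSG00000010292, chr12:6493356-6531955, plus strand), a HEAT-repeat subunit and per length the most abundant condensin RNA, was at 256, 287 and 287 CPM in NC and at 51.9, 57.8 and 51.3 CPM in si-EIF5A2. That is a log2 fold change of -2.36 (SE 0.09, adjusted p = 4.80e-06) with no overlap. Its exons lie opposite MRPL51 over 7.49% of their length, and MRPL51 was not called (164 against 165 CPM, log2 fold change 0.012).

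NCAPG (ENSG00000109805, chr4:17810902-17844862, plus strand), the other HEAT-repeat subunit, was at 31.2, 35.7 and 36.5 CPM in NC and at 4.11, 4.08 and 6.19 CPM in si-EIF5A2. Replicate 3 was the highest of the si-EIF5A2 libraries and still under every NC library (log2 fold change -2.85, SE 0.19, adjusted p = 2.40e-05). LCORL lies opposite 33.1% of the exons of NCAPG and was called lower from 5.97 to 3.60 CPM (log2 fold change -0.73). The kleisin NCAPH (ENSG00000121152, chr2:96335787-96373845, plus strand) was at 19.4, 25.0 and 27.1 CPM in NC and at 2.15, 2.41 and 4.25 CPM in si-EIF5A2. Its drop, with a log2 fold change of -3.02 (SE 0.29, adjusted p = 2.12e-04), had the largest size and the largest SE of the 10 genes.

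Condensin II subunits also fell, with a median log2 fold change of -1.89 over the 3 genes. NCAPD3 (ENSG00000151503, chr11:134150119-134225454, minus strand), a HEAT-repeat subunit, was at 18.1, 24.4 and 27.2 CPM in NC and at 6.61, 5.29 and 5.90 CPM in si-EIF5A2. NC replicate 1 was the lowest of the NC libraries and stood above all of si-EIF5A2 (log2 fold change -1.97, SE 0.18, adjusted p = 1.12e-04). VPS26B lies opposite 2.73% of the exons of NCAPD3 and was not called (40.5 CPM in NC, 47.2 CPM in si-EIF5A2). It was thus counted more than NCAPD3, and its part in the NCAPD3 counts was not tested. JAM3, opposite 5.10%, had few counts (0.375 CPM in NC, 0.0556 CPM in si-EIF5A2). NCAPG2 (ENSG00000146918, chr7:158631311-158704829, minus strand), the second HEAT-repeat subunit, was at 21.3, 22.1 and 26.3 CPM in NC and at 7.84, 5.36 and 5.61 CPM in si-EIF5A2. The groups were apart here too (log2 fold change -1.89, SE 0.18, adjusted p = 1.35e-04).

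The kleisin NCAPH2 (ENSG00000025770, chr22:50508216-50523472, plus strand) showed the smallest fall of the 8 subunits. It was at 40.7, 38.9 and 39.8 CPM in NC and at 18.2, 21.6 and 21.6 CPM in si-EIF5A2. All 6 values lay close to their group means and the groups did not overlap (log2 fold change -0.96, SE 0.10, adjusted p = 2.26e-04). At the 2-fold limit of the methods NCAPH2 would not be called.

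**Figure D2:**
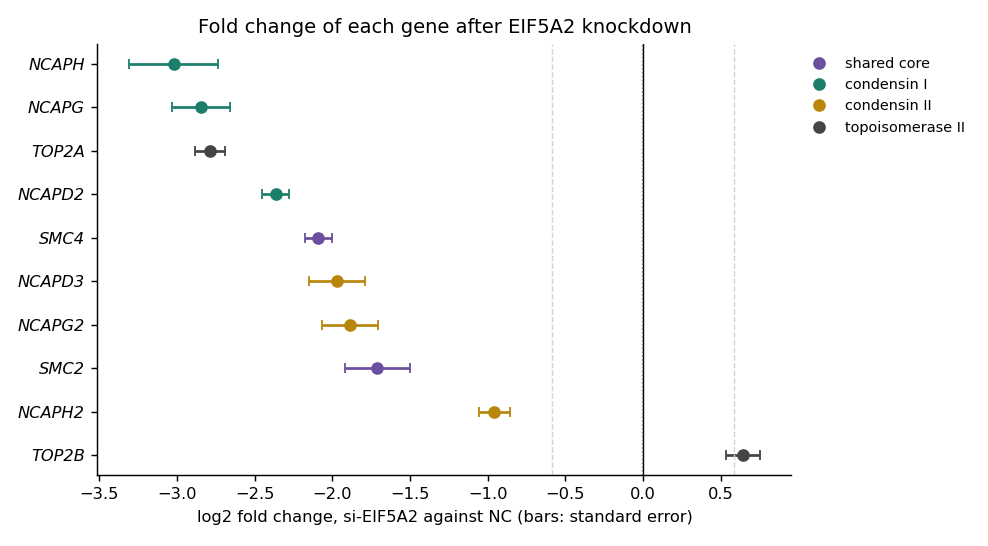
Log2 fold change of si-EIF5A2 against NC for each gene with its standard error, coloured by role, the dashed lines marking the 1.5-fold limit. Condensin I subunits lie at -3.02 to -2.36, condensin II subunits at -1.97 to -0.96, and TOP2B alone lies right of 0, at 0.64.

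TOP2A and TOP2B moved in opposite directions. TOP2A (ENSG00000131747, chr17:40388516-40417950, minus strand) was at 149, 163 and 164 CPM in NC and at 21.3, 25.2 and 22.5 CPM in si-EIF5A2. Each si-EIF5A2 library held a small part of the NC level, and the log2 fold change was -2.79 (SE 0.09, adjusted p = 4.44e-06). TOP2B (ENSG00000077097, chr3:25597905-25664907, minus strand) was at 69.3, 67.0 and 68.5 CPM in NC and at 107, 91.2 and 121 CPM in si-EIF5A2. The NC libraries were nearly level, the si-EIF5A2 libraries all lay above them, and replicate 3 was the highest (log2 fold change 0.64, SE 0.11, adjusted p = 0.00239). The rise of TOP2B rests on that library for its call: without it the log2 fold change was 0.54 (adjusted p = 0.00834), under the 1.5-fold limit.

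Ratios between paralogous genes within a library do not depend on how libraries are scaled, and 5 pairs were compared. The log2 ratio of TOP2A counts to TOP2B counts was 1.10, 1.29 and 1.26 in NC and -2.33, -1.86 and -2.43 in si-EIF5A2. TOP2A was thus the more counted gene in every NC library and TOP2B in every si-EIF5A2 library, a shift of -3.42 (SE 0.186). NCAPH against NCAPH2 shifted by -2.10 (SE 0.302), from -0.75 ± 0.275 to -2.85 ± 0.445 (SD, n = 3).

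NCAPG against NCAPG2 shifted by -0.97 (SE 0.316), from 0.57 ± 0.111 to -0.39 ± 0.536, so that in si-EIF5A2 replicate 3 NCAPG was still the more counted of the pair. The groups did not overlap in these 3 ratios, each with a two-sided exact permutation p of 0.10, the smallest that 3 against 3 libraries allow, and 0.167 after adjustment over the 5 pairs. NCAPD2 against NCAPD3 moved from 3.59 ± 0.212 to 3.18 ± 0.244, with overlap and an exact permutation p of 0.20 (adjusted 0.25).

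**Figure D3:**
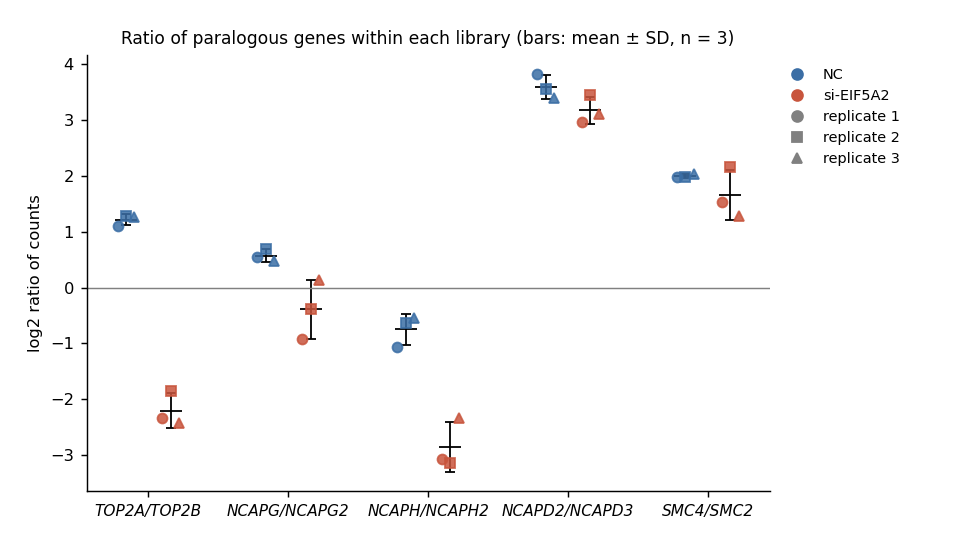
Log2 ratio of counts for 5 gene pairs in each library, with the mean and SD of NC and si-EIF5A2 (n = 3 each). TOP2A/TOP2B crosses from 1.22 to -2.20, NCAPH/NCAPH2 drops from -0.75 to -2.85, and the groups overlap for NCAPD2/NCAPD3 and SMC4/SMC2.

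Levels of different genes were set side by side as CPM per kb of annotated exon. In NC the order from the top was NCAPD2 (42.6), TOP2A (24.7), NCAPH2 (12.6), TOP2B (11.3), SMC4 (9.90), NCAPH (7.27), NCAPG (7.003), NCAPG2 (3.32), SMC2 (3.23) and NCAPD3 (2.55). NCAPH and NCAPG overlapped across libraries, as did NCAPG2 and SMC2, and the other neighbours in this order did not. In si-EIF5A2 TOP2B stood first (17.6), ahead of NCAPD2 (8.28), NCAPH2 (6.48), TOP2A (3.57) and SMC4 (2.33). The other 5 genes, SMC2, NCAPG, NCAPG2, NCAPH and NCAPD3, lay between 0.987 and 0.651, and each overlapped its neighbour in this order. All NCAPD3 values lay below all those of NCAPG and NCAPG2, and within each si-EIF5A2 library NCAPD3 also lay below SMC2. With the coding length or the longest transcript in place of all exons, 43 of the 45 pairs of genes kept this order in NC, and 42 and 39 of 45 did in si-EIF5A2.

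The balance between the complexes can be read on the same scale. The 3 subunits of condensin I summed to 56.9 ± 4.55 CPM per kb in NC and to 10.1 ± 0.561 in si-EIF5A2, and those of condensin II to 18.5 ± 0.773 and 8.03 ± 0.375 (SD, n = 3). The sum for condensin I over that for condensin II was 2.89, 3.25 and 3.10 in NC and 1.25, 1.28 and 1.26 in si-EIF5A2. The ratio was lower in every si-EIF5A2 library, while condensin I remained the larger sum in each. NCAPD2 and NCAPH2 carry much of the respective sums, NCAPD2 at 42.6 CPM per kb in NC and 8.28 in si-EIF5A2. The larger sum of condensin I rests on NCAPD2: without this gene it would lie below that of condensin II in every library. Amounts of RNA do not give amounts of assembled complex.

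Genes that act with condensin and topoisomerase II were read from 3 lists in the same fit. Of 16 partners and regulators of chromosome condensation, 9 fell (56.25%, against 13.6% of all tested genes), 2 rose and 5 were not called. The 2 that rose are 12.5% of the list, near the 11.1% over all tested genes. The median log2 fold change was -1.73. The largest falls were CDCA5 (-4.12), which encodes sororin, the protector of sister cohesion, AURKB (-3.37), the kinase of the chromosomal passenger complex, and PLK1 (-3.10), a mitotic kinase that acts on condensin II. CHMP1A (1.07) and the phosphatase subunit PPP2R2A (0.74) rose. KIF4A, the chromokinesin that works beside condensin I, fell by 2.68 on the log2 scale, and MKI67, whose protein coats mitotic chromosomes, fell by 3.06. MCPH1, which restrains condensin II in interphase, was at a log2 fold change of 0.21 and was not called.

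Of 12 other topoisomerases and factors that resolve topoisomerase II adducts or DNA bridges, 4 fell (33.3%) and 2 rose (16.7%). Over all tested genes the shares were 13.6% and 11.1%. The median log2 fold change of the list was -0.38. Those that fell were the helicase BLM (-2.64), its partners RMI2 (-2.15) and RMI1 (-1.49), and ERCC6L (-2.35), the translocase PICH of ultrafine anaphase bridges. BLM had few counts, at 0.167 CPM in si-EIF5A2 replicate 3, which is under the floor of that library, and its adjusted p rose to between 0.0528 and 0.0671 when NC replicate 1, NC replicate 3 or si-EIF5A2 replicate 2 was left out. The mitochondrial topoisomerase TOP1MT (0.87) and ZNF451 (0.66), a SUMO ligase acting on trapped topoisomerase II, rose, the latter only with si-EIF5A2 replicate 3 included (0.54 without it). TOP3A, a type I topoisomerase, had a log2 fold change of -0.51 and was called lower only without si-EIF5A2 replicate 1 (-0.62, adjusted p = 0.0121). The log2 fold change of TOP1 was 0.55 (adjusted p = 0.00126) and stayed under the fold limit.

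Of 15 genes of the cohesin core, the SMC5/6 complex and the SMC-like SMCHD1, which share the SMC architecture with condensin, 14 were tested (SMC1B was not). Of these, edgeR called 2 lower (14.3%, against 13.6% of all tested genes) and 0 higher (against 11.1%). Lower calls were thus about as frequent as over all tested genes. The median log2 fold change was -0.086. RAD21, the cohesin kleisin, was called lower at -1.20 and SMCHD1 at -0.64 (-0.58 and not called without si-EIF5A2 replicate 2). At an unadjusted p under 0.05 EID3, at 0.743, 0.307 and 1.501 CPM in si-EIF5A2, was the 1 gene on the higher side (log2 fold change 1.63, adjusted p = 0.108), and DESeq2 also called 0 higher. EID3 passed the call without si-EIF5A2 replicate 2 (log2 fold change 2.03, adjusted p = 0.0472). The core ATPases were not called, with log2 fold changes of -0.093 for SMC1A, -0.079 for SMC3, 0.20 for SMC5 and 0.038 for SMC6. The difference between these ATPases and SMC2 or SMC4 was not tested.

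The genes whose log2 CPM followed TOP2A most closely over the 6 libraries were PTTG1, which encodes securin, PSME3IP1 and CDKN3 (Pearson r = 0.9997, 0.9996 and 0.9996). For TOP2B they were CLIP1 (r = 0.997), GALNT6 (r = 0.996) and ZNF644 (r = 0.996). These values describe 6 points in 2 groups of 3, in which any gene that separates the groups scores high: 1621 genes had r over 0.95 with TOP2A and 454 with TOP2B.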

How the data were processed

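Total RNA of 6 SKOV3 samples was made into mRNA libraries and sequenced as paired-end reads on an Illumina NovaSeq. The authors deposited whole numbers per Ensembl gene, with no normalization stated, which were read here as estimated counts. The methods name StringTie and ballgown for FPKM and do not say how the deposited table was made. Low values step by 3.72 counts, taken as the worth of 1 read pair. The submitters' processing notes name Bowtie 0.12.2 and the mouse builds mm8 and mm9, which a table of human Ensembl genes cannot rest on. The aligner, the human build and the use of strand are not given in the sources used here. No column of other samples was present (0 left over).

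Genes were kept by filterByExpr (16208 of 58825), scaled by TMM and tested with the robust quasi-likelihood fit of edgeR 4.0.16 in R 4.3.3, condition only, with Benjamini-Hochberg correction over all tested genes. Calls needed a fold change over 1.5 and an adjusted p under 0.05. The SE is the log2 fold change over the square root of F. A count of 0 was read as allowing up to 3 read pairs, which covers counting error only, and no zero was replaced before the fit. Ratios were tested by two-sided exact permutation. The fit and the calls were first run on simulated counts, which had fewer changed genes than called here and no stepping of low values. That run checks the code and not the calls in these data. Alternatives were the full fit and test of DESeq2 1.42.0, other filters, thresholds and scalings, each library left out, and a replicate block.

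The 10 genes and the lists were chosen with earlier results of these data known. Neither the share of the 10 genes called nor the lists are therefore independent evidence. From each list the 3 largest falls and rises among called genes are named, with the 3 closest followers of TOP2A and of TOP2B. RMI1, KIF4A, MKI67, MCPH1, TOP1, TOP3A, EID3, the SMC ATPases and the genes overlapping a member are named outside that rule, after their values were seen. Gene positions are from GENCODE 29 (GRCh38) and promoter windows from RefSeq (GRCh38.p14). Protein identity was not analysed here, and 1 listed cell type marker is not reported here.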

Additional observations from a re-analysis of the deposited data

How the results depend on the processing

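With 3 libraries a group, the limits are the spread between si-EIF5A2 libraries, which among the 10 genes was widest for NCAPH and SMC2 relative to their means, the unstated use of strand where exons overlap, and counts for BLM and EID3 near the floor. Alternatives covered other scalings, filters, tests, thresholds and promoter windows and the left-out libraries. Among them 3 fold changes, all of TOP2B or NCAPH2, were no longer called and none reversed. In addition, 17 counts or shares moved beyond their set margin (1.5 times for a count), some of them motif shares in the shorter promoter window. The number of members called lower was 9 in every alternative but the methods' threshold (unadjusted p under 0.05, fold over 2), where it was 8: NCAPH2 (-0.96) was not called and neither was TOP2B (0.64), which left 0 members higher. Leaving out each library, the log2 fold change of TOP2B ran from 0.54 to 0.74 and the members called higher from 0 to 1. Over the same set the other topoisomerases ran from 3 to 5 lower and from 1 to 2 higher, and the other SMC complexes from 1 to 2 lower and from 0 to 1 higher. The methods' threshold gave 872 genes higher in all, 1 condensation partner, 0 other topoisomerases and 1 gene of other SMC complexes higher, and 1 of the latter lower. With no limit on the fold, 2911 genes were higher in all, 5 condensation partners higher and 7 other topoisomerases lower. These moves follow from the limits themselves.

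In the 250 bases before the start alone, CHR stood in 13.3% of windows and in 5 of the genes, CCAAT in 32.0% and E2F spellings in 2.79%. Same-numbered libraries of the groups deviated from their group means with correlations of -0.024, 0.0052 and -0.0027, so they were not treated as pairs. With 3 libraries a group these correlations cannot exclude a shared batch. With the replicate block the members called were 9 lower and 1 higher, and all genes 2050 lower and 1681 higher, and no member's call changed. The identity between paralogous proteins was not run.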

Other observations

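The si-EIF5A2 libraries did not keep one order across the genes. NCAPG, NCAPH and SMC2 were highest in replicate 3 (6.19, 4.25 and 8.13 CPM), NCAPD3 and NCAPG2 in replicate 1 (6.61 and 7.84 CPM), and NCAPD2, SMC4 and TOP2A in replicate 2 (57.8, 20.3 and 25.2 CPM). The spread relative to the mean was 39.0% for NCAPH and 28.5% for SMC2 but 3.55% for SMC4, which is the partner of SMC2 in the same dimer. NCAPH was counted 110, 126 and 204 times in these libraries, with about 3.72 counts per read pair, so its values rest on few read pairs.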
